A study of Mus musculus with 18 samples.

Results

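The comparison described here set mouse CD4+ T cells that lack the 3 oxygen-sensing prolyl hydroxylases against control cells, both grown with the highest dose of TGF-b in the study. It uses 4 of the 18 RNA-seq libraries of the series, chosen by their labels: 2 libraries of triple knockout cells (tKO) and 2 of WT cells, all with 2 ng/ml TGF-b. tKO cells came from Egln1fl/fl Egln2fl/fl Egln3fl/fl Cd4Cre mice and WT cells from Cd4Cre mice, so both genotypes carried the Cre transgene, which is active from T cell development in the thymus onward. Naive CD4+ T cells were sorted from the spleen of mice labelled C57BL/6, stimulated through CD3 and CD28, and collected on day 4. The same genotypes with 0 and 0.2 ng/ml TGF-b (4 libraries each) gave the effect of the knockout at other doses. A second experiment (6 libraries) treated wild-type cells at 2 ng/ml TGF-b with 1 mM DMOG, which blocks the PHD proteins and other enzymes of their class, or with vehicle, 3 libraries each. The labels do not say that the replicates of a group came from separate mice, so p-values measure only the spread between these libraries. In WT that spread may be technical, while the 2 tKO libraries differed in sex-linked transcripts, as given below.

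PHD2, PHD1 and PHD3, encoded by Egln1, Egln2 and Egln3, use oxygen and 2-oxoglutarate to hydroxylate the alpha subunits of hypoxia-inducible factors (HIF). The von Hippel-Lindau protein binds the hydroxylated subunits and directs their degradation, and without hydroxylation HIF pairs with ARNT and binds DNA motifs with the core ACGTG or GCGTG near genes of glycolysis, mitophagy and oxygen supply. TGF-b drives activated CD4+ T cells toward the regulatory fate defined by the transcription factor FOXP3, while effector fates use T-bet, GATA3 and other factors.

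Values are the authors' FPKM (fragments per transcript length and library size), a level per length, so that levels of different genes in a library can be compared. Differences are tKO minus WT means of log2(FPKM + 1) with their SE from limma, tested over the 10354 genes whose mean reached 1 FPKM. They understate changes of low genes, and a gene is called where its Benjamini-Hochberg adjusted p is under 0.05. For a named gene whose call was lost without 1 of the 4 libraries, the adjusted p without that library stands beside it.

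Cd4 was at 117 and 138 FPKM in the tKO libraries and 137 and 141 FPKM in the WT libraries, while the myeloid markers Lyz2, Tyrobp, S100a8, S100a9 and Mpo were listed at 0 in all 4. Of the B cell markers, 5 could be tested and 0 were called, with summed levels of 30.0 and 27.9 FPKM in tKO against 62.1 and 17.4 FPKM in WT, and Pax5 was listed at 0 in all 4. The myeloid markers summed to 0.913 and 0.841 FPKM in tKO against 8.49 and 2.53 FPKM in WT. Of markers that T cells can also express, Zbtb46 was higher in tKO at 6.00 and 5.01 FPKM, against 0.387 and 0.512 FPKM in WT, and Pecam1 lower at 13.2 and 18.4 FPKM, against 49.9 and 54.8 FPKM in WT. The part of these other markers in the results was not tested. The FPKM of all entries summed to 563272 and 548974 in the tKO libraries, the lowest of the 12 of the experiment, against 658131 and 662155 in the WT libraries. Transcripts of the Y chromosome appeared in 1 of the 2 tKO libraries only. Eif2s3y was at 42.0 FPKM in tKO replicate 1 and at 0 in tKO replicate 2 and both WT libraries. Xist, the marker of female cells, was at 0.0531 FPKM in tKO replicate 1 and 5.16 FPKM in tKO replicate 2. In the WT libraries it was at 3.47 and 4.30 FPKM. Sex-linked transcripts thus differed within tKO and were not balanced between the genotypes. The same replicate number of tKO carried the Y transcripts at every dose. Without that replicate number at all doses, 1333 genes were called at 2 ng/ml. In bulk RNA, fewer cells of a kind and less RNA per cell also cannot be told apart.

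The difference between the genotypes moved with transcript length at 2 ng/ml. Among 9522 tested genes with a length in the GENCODE M21 annotation, the median difference was −0.30 for the 406 genes of up to 600 nt and 0.07 for the 993 genes of over 5000 nt. Genes called lower in tKO made up 19.5% of the shortest class and 3.32% of the longest, and genes called higher 6.40% and 5.54%. At 0 ng/ml the medians of the same classes were 0.01 and 0.03, and at 0.2 ng/ml 0.24 and 0.06. As a description across genes, Spearman's rho of length and difference was 0.206 at 2 ng/ml, −0.0737 at 0 ng/ml and −0.138 at 0.2 ng/ml, so its sign at 2 ng/ml was opposite to that at the other doses. Each of the 9522 genes was also fitted with the trend removed. At 2 ng/ml 1525 of them were then called, 803 higher and 722 lower. The cause of the trend was not tested. With the trend removed at 2 ng/ml, 2 cytotoxic genes were called higher, against 4 with it, 5 Th2 genes higher against 3, 4 genes of MYC and ribosome biogenesis higher against 1, and 11 naive and recirculating genes lower against 9.

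**Figure D1:**
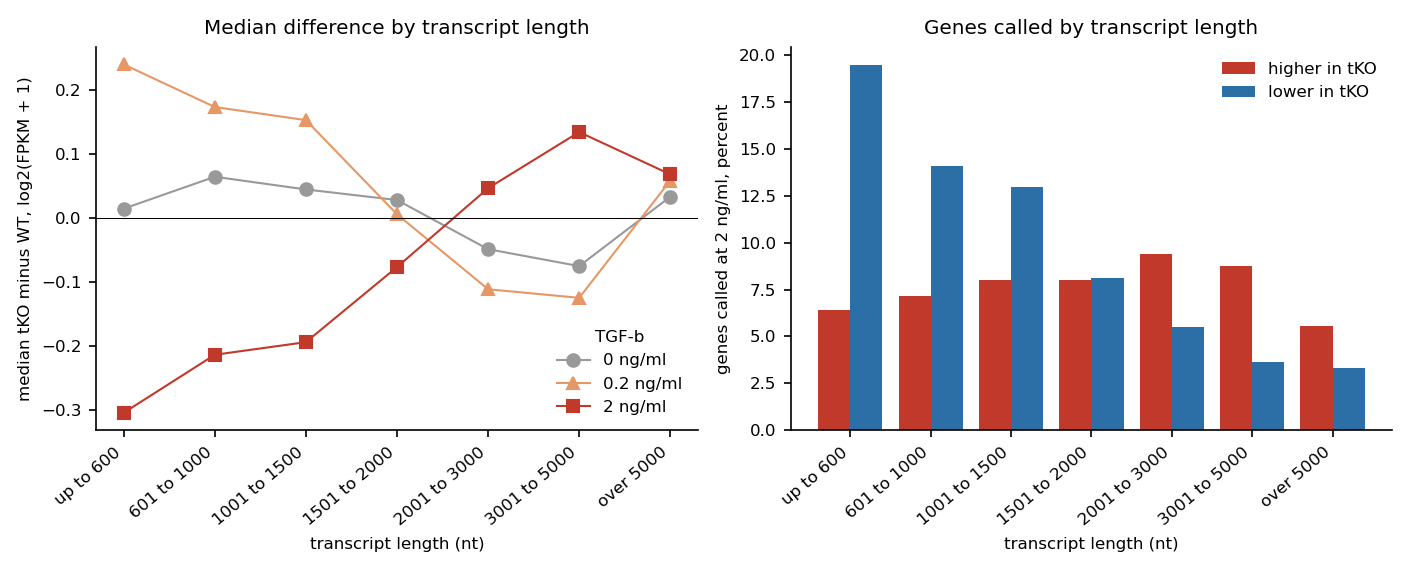
Left, median difference of log2(FPKM + 1), tKO minus WT, against transcript length in nt at 0, 0.2 and 2 ng/ml TGF-b; right, percent of genes in each length class called higher (red) or lower (blue) in tKO at 2 ng/ml. At 2 ng/ml the median runs from −0.30 in the shortest class to 0.13 in the class that ends at 5000 nt, and the share called lower from 19.5% to 3.32%.

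At 2 ng/ml, 1655 of the 10354 genes were called (16.0%), 810 higher in tKO (7.82%) and 845 lower (8.16%). Differences of at least 1 on the log2 scale were reached by 604 of the genes called higher and 414 of those called lower. The libraries of the genotypes did not overlap for 6336 genes (61.2%). When 1 of the 4 libraries was left out, so that the lone library left in its group was assumed to vary like the others, 725 genes were called without tKO replicate 2 and 750 when tKO replicate 1 was dropped, and 837 without WT replicate 2 and 1077 when WT replicate 1 was dropped.

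The genes with the smallest p that were higher in tKO included some of mitophagy, glycolysis and membrane organisation. Bnip3, a mitophagy receptor of the outer mitochondrial membrane (mm9 chromosome 7, 146080393 to 146101189), was at 720 and 710 FPKM in tKO and 24.0 and 31.9 FPKM in WT, a difference of 4.64 ± 0.17 (SE, adjusted p = 2.09e-09, n = 2 libraries each). Anxa2, a calcium-dependent membrane-binding protein (chromosome 9, 69301489 to 69339592), was at 1317 and 1157 FPKM in tKO and 84.2 and 70.3 FPKM in WT, a difference of 3.99 ± 0.17 (adjusted p = 9.68e-09). Both genes thus stood among the abundant transcripts of tKO cells, with no overlap between the genotypes. Scin, an actin-severing protein, reached 70.8 and 63.4 FPKM in tKO and 0.874 and 0.710 FPKM in WT (difference 5.25 ± 0.34, adjusted p = 9.02e-07). Mgarp, which shapes and moves mitochondria, was at 197 and 179 FPKM in tKO and near 0 in WT, at 0 and 0.0287 FPKM.

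Metabolic and signalling genes outside glycolysis were also among the strongest rises. Upp1, uridine phosphorylase, which splits uridine into uracil and ribose phosphate, was at 73.2 and 36.2 FPKM in tKO and 1.05 and 1.98 FPKM in WT (difference 4.41 ± 0.32, adjusted p = 2.02e-06). Pygl, which breaks down glycogen, was at 19.9 and 17.3 FPKM in tKO and 0.0135 and 0.023 FPKM in WT. Penk, the precursor of the enkephalin peptides, was at 382 and 301 FPKM in tKO and 26.3 and 7.18 FPKM in WT (difference 4.51 ± 0.46, adjusted p = 3.01e-05). All of these rises were larger than the spread between libraries of a genotype.

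The strongest falls included genes that restrain signalling and growth. Arl5c, a small GTPase of the ARF-like family (chromosome 11, 97850891 to 97857487), was at 13.8 and 13.6 FPKM in tKO and 131 and 111 FPKM in WT, a difference of −3.05 ± 0.25 (adjusted p = 6.27e-06). Pik3ip1, an inhibitor of phosphoinositide 3-kinase, was at 16.8 and 16.1 FPKM in tKO and 140 and 119 FPKM in WT, a difference of −2.90 ± 0.26 (adjusted p = 9.78e-06). Rgs10, which shortens G-protein signals, was at 167 and 163 FPKM in tKO and 661 and 599 FPKM in WT. Mxd4, a partner of MAX that opposes MYC at DNA, was at 26.4 and 25.3 FPKM in tKO and 93.8 and 94.6 FPKM in WT. Adh1, an alcohol dehydrogenase, had the largest fall by size among these named genes at −4.06 ± 0.44 (2.37 and 0.630 FPKM in tKO, 30.6 and 47.4 FPKM in WT). In all, 16 tested genes had a library at 20 FPKM or more and another of the 4 at 0, and a listed 0 can be a failed estimate.

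**Figure D2:**
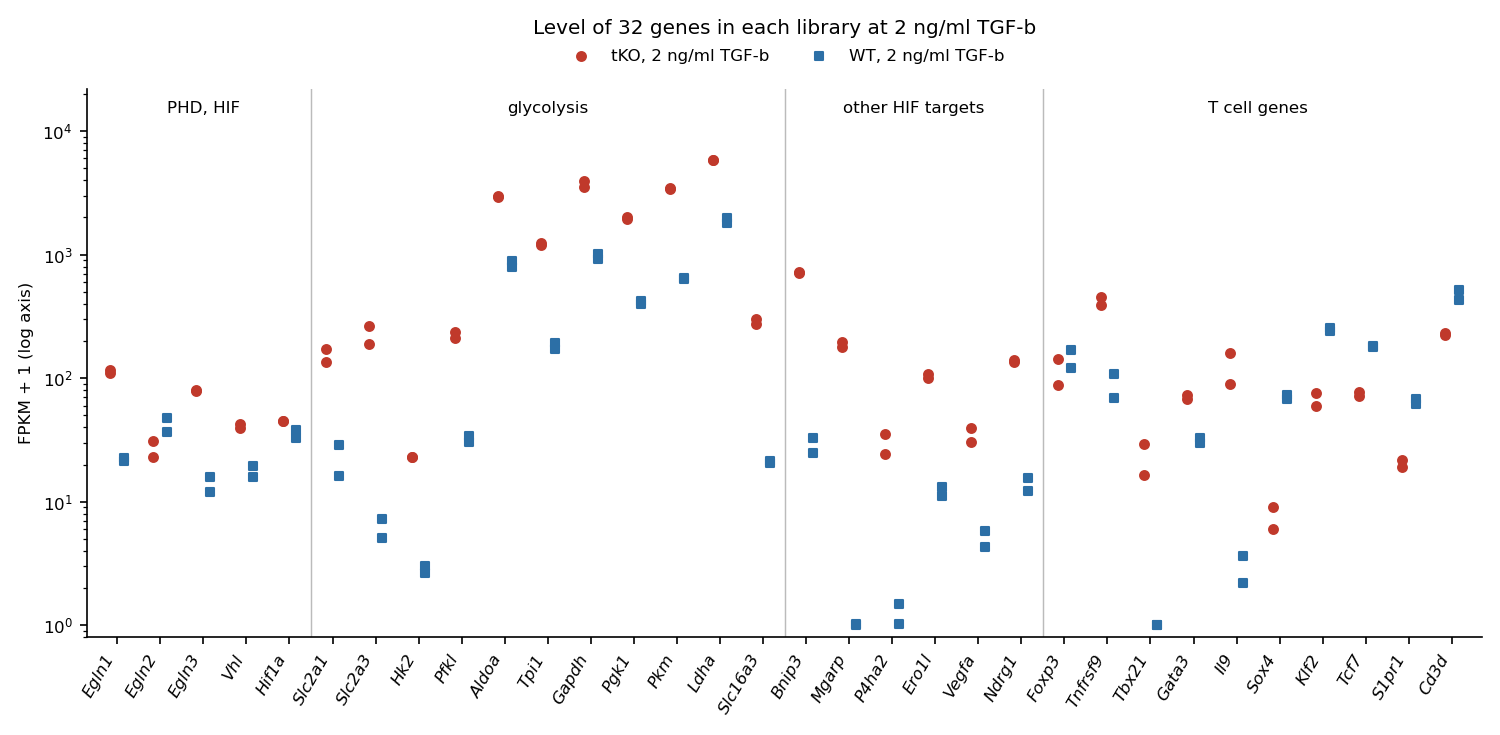
Level of 32 genes as FPKM + 1 on a log axis in each library at 2 ng/ml TGF-b, with tKO libraries as red circles and WT libraries as blue squares, 2 each. The tKO circles of the glycolysis and HIF target genes lie above the WT squares, those of Foxp3 overlap with them, and those of Sox4, Klf2, Tcf7, S1pr1 and Cd3d lie below.

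Transcripts of 2 of the 3 floxed genes were more abundant in tKO than in WT. Egln1 (chromosome 8, 127432472 to 127473232) was at 116 and 108 FPKM in tKO and 21.7 and 20.4 FPKM in WT, a difference of 2.36 ± 0.18 (adjusted p = 3.6e-06). Egln3 (chromosome 12, 55279002 to 55304867) was at 77.4 and 79.4 FPKM in tKO and 11.0 and 14.9 FPKM in WT, a difference of 2.53 ± 0.23 (adjusted p = 1.07e-05). Both are themselves known HIF targets, and the floxed alleles lose only part of each gene, so whole-gene FPKM does not test the deletion. Egln2 (chromosome 7, 27943649 to 27951821) was at 29.8 and 21.9 FPKM in tKO and 46.4 and 35.6 FPKM in WT, a difference of −0.65 ± 0.26 that did not pass (adjusted p = 0.106).

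Counts of list members called at 2 ng/ml, here and below, stand beside 7.82% of all genes called higher and 8.16% lower. Of 10 tested genes of the PHD and HIF core 4 were higher and 0 lower, with a median difference of 0.50 against −0.02 over all genes. Besides Egln1 and Egln3 these were Vhl, at 38.2 and 41.3 FPKM in tKO and 18.4 and 14.8 FPKM in WT (1.22 ± 0.20, adjusted p = 0.000997), and Hif3a, an alpha subunit at 2.28 and 2.53 FPKM in tKO and 0.143 and 0.0045 FPKM in WT. Hif1a, the broadly expressed alpha subunit, was at 43.9 and 43.9 FPKM in tKO and 31.7 and 37.2 FPKM in WT, and its difference of 0.34 ± 0.38 did not pass (adjusted p = 0.592). Epas1, encoding HIF-2 alpha, was at 0.0131 and 0.0292 FPKM in tKO and 0.131 and 0.112 FPKM in WT and was not tested. Cited2, which limits HIF activity, had a difference of −0.14 ± 0.21, and Hif1an, which hydroxylates HIF at another residue, one of 0.37 ± 0.27; neither passed.

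Transcripts for glucose uptake and glycolysis were higher in tKO along nearly the whole pathway. In upper glycolysis 9 of 10 tested genes were higher and 0 lower (median 2.44), and 7 to 8 were higher when any 1 of the 4 libraries was left out. Slc2a3, a high-affinity glucose transporter, was at 263 and 187 FPKM in tKO and 6.20 and 4.11 FPKM in WT, a difference of 5.20 ± 0.43 (adjusted p = 6.27e-06). Slc2a1, the transporter of activated T cells, was at 170 and 135 FPKM in tKO and 28.0 and 15.3 FPKM in WT (2.81 ± 0.25, adjusted p = 9.78e-06). Slc2a3 thus stood above Slc2a1 in tKO and below it in WT, as a level per length. Hk2, which traps glucose in the cell, was at 22.0 and 22.1 FPKM in tKO and 2.03 and 1.64 FPKM in WT (3.02 ± 0.26, adjusted p = 9.39e-06), and Hk1 at 134 and 114 FPKM in tKO and 23.9 and 30.9 FPKM in WT (2.15 ± 0.38, adjusted p = 0.00187). Pfkl, a subunit of the committing enzyme phosphofructokinase, was at 209 and 237 FPKM in tKO and 33.3 and 29.4 FPKM in WT (2.79 ± 0.28, adjusted p = 3.11e-05).

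In lower glycolysis 8 of 9 genes were higher and 0 lower (median 1.95), and 8 stayed the count whichever library was left out. Aldoc, an aldolase, was at 123 and 106 FPKM in tKO and 7.95 and 2.14 FPKM in WT (4.43 ± 0.38, adjusted p = 9.34e-06), while the abundant Aldoa was at 2942 and 2974 FPKM in tKO and 880 and 798 FPKM in WT (1.82 ± 0.16, adjusted p = 9.34e-06). Tpi1, which interconverts the triose phosphates, was at 1184 and 1233 FPKM in tKO and 192 and 172 FPKM in WT (2.73 ± 0.16, adjusted p = 5.18e-07). Pgk1, phosphoglycerate kinase, was at 1955 and 2021 FPKM in tKO and 418 and 394 FPKM in WT (2.29 ± 0.15, adjusted p = 9.02e-07). Pkm, pyruvate kinase, was at 3380 and 3473 FPKM in tKO and 641 and 632 FPKM in WT (2.43 ± 0.21, adjusted p = 9.39e-06). Every one of these rises exceeded the spread between libraries. Eno3, the enolase known from muscle, was the exception of the list at 98.9 and 137 FPKM in tKO and 117 and 110 FPKM in WT, where the genotypes overlapped. The genome holds processed pseudogenes near-identical to Gapdh, Aldoa, Pgk1, Tpi1, Eno1 and Ldha, so their FPKM can include or lose reads of such copies.

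At the branch of pyruvate toward lactate or the mitochondrion, 4 of 12 tested genes were higher and 2 lower (median 0.04). Of all genes, 7.82% were called higher and 8.16% lower. Ldha, which makes lactate, was at 5861 and 5844 FPKM in tKO and 1961 and 1790 FPKM in WT (1.64 ± 0.17, adjusted p = 4.4e-05). Slc16a3, the lactate exporter MCT4, was at 300 and 274 FPKM in tKO and 19.7 and 20.5 FPKM in WT (3.77 ± 0.26, adjusted p = 1.65e-06). Pdk1, a kinase that switches off pyruvate dehydrogenase, was at 80.7 and 77.5 FPKM in tKO and 23.0 and 30.4 FPKM in WT (1.55 ± 0.27, adjusted p = 0.00191). Ldhb, the partner lactate dehydrogenase, had a difference of −0.27 ± 0.17, and Slc16a1, another lactate carrier, one of 0.64 ± 0.24; neither passed. The 2 genes called lower, Pdha1 and Mpc2, a subunit of pyruvate dehydrogenase and one of the mitochondrial pyruvate carrier, fell by 0.69 and 1.00. The adjusted p of Pdha1 was 0.149 without tKO replicate 1 and 0.0734 without tKO replicate 2, and 0.186 when WT replicate 2 was dropped, and that of Mpc2 was 0.0612 to 0.0870 whichever library was left out.

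Genes of mitophagy and of mitochondrial adjustment to low oxygen were higher in 7 of 8 tested cases and lower in 0 (median 2.05), and 7 with any library left out. Next to Bnip3 and Mgarp these included the paralog Bnip3l, at 167 and 163 FPKM in tKO and 83.3 and 76.5 FPKM in WT (1.04 ± 0.18, adjusted p = 0.00212). Fam162a was at 540 and 426 FPKM in tKO and 133 and 102 FPKM in WT (2.03 ± 0.21, adjusted p = 3.01e-05), and Higd1a, which associates with respiratory complexes, at 173 and 153 FPKM in tKO and 46.8 and 36.5 FPKM in WT (1.95 ± 0.26, adjusted p = 0.000231). Cox4i2, the hypoxic isoform of a cytochrome oxidase subunit, was at 2.94 and 3.47 FPKM in tKO and was listed at 0 in both WT libraries. Fundc1, a mitophagy receptor not known as a HIF target, was at 49.2 and 44.7 FPKM in tKO and 53.4 and 58.7 FPKM in WT and did not pass.

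Among other known HIF targets 12 of 15 tested genes were higher and 0 lower (median 2.05), and 11 with any library left out. Vegfa, the angiogenic growth factor, was at 38.4 and 29.7 FPKM in tKO and 3.31 and 4.79 FPKM in WT (2.80 ± 0.31, adjusted p = 6.29e-05). Ndrg1, a stress-responsive membrane protein, was at 135 and 140 FPKM in tKO and 14.5 and 11.2 FPKM in WT (3.33 ± 0.23, adjusted p = 1.61e-06). Adm, the vasodilator peptide adrenomedullin, was at 13.4 and 10.1 FPKM in tKO and 1.34 and 1.41 FPKM in WT. Glycogen synthase Gys1 was at 52.2 and 64.4 FPKM in tKO and 5.29 and 4.20 FPKM in WT (3.37 ± 0.35, adjusted p = 3.49e-05), and the branching enzyme Gbe1 at 33.0 and 18.1 FPKM in tKO and 4.38 and 5.99 FPKM in WT (2.05 ± 0.34, adjusted p = 0.00134). With Pygl, genes for making and for breaking down glycogen were thus both higher in tKO.

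The promoters of 6 of the genes with small p are printed to show how the HIF core motif lies near their start sites. They are the 250 bases before to 50 bases after the start on the gene's own strand, from RefSeq on GRCm38.p6, with each ACGTG or GCGTG, or its reverse complement CACGT or CACGC, in capitals. ACGTG and CACGT can overlap, as they do once in Bnip3. The windows are chr7:138909457-138909756 (minus strand) for Bnip3, chr14:45318523-45318822 (minus strand) for Ero1l (Ero1a in RefSeq), chr9:69453433-69453732 (plus strand) for Anxa2, chrX:106186850-106187149 (plus strand) for Pgk1, chr3:51396498-51396797 (minus strand) for Mgarp and chr6:124814109-124814408 (minus strand) for Tpi1.
Bnip3: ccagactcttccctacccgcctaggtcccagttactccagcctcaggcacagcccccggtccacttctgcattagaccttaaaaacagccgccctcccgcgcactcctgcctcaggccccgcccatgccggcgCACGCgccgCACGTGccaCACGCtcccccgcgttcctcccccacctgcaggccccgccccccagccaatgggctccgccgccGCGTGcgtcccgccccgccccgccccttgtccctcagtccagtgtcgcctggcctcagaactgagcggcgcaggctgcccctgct
Ero1l: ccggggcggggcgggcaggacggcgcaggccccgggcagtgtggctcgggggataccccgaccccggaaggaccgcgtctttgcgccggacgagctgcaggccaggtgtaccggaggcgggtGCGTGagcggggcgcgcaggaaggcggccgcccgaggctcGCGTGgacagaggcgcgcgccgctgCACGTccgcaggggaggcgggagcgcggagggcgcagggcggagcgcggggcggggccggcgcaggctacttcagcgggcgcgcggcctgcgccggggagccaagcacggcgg
Anxa2: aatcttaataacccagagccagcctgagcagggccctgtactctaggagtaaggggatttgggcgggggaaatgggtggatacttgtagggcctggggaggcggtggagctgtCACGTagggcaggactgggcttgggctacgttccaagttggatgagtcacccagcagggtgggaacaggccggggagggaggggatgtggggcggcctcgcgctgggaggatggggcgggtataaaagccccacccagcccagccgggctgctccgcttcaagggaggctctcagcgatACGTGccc
Pgk1: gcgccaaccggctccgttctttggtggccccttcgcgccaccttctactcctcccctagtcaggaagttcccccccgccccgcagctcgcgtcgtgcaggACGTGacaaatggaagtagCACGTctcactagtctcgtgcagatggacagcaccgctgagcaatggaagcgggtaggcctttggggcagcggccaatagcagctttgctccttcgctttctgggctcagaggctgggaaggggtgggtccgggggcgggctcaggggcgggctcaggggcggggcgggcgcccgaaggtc
Mgarp: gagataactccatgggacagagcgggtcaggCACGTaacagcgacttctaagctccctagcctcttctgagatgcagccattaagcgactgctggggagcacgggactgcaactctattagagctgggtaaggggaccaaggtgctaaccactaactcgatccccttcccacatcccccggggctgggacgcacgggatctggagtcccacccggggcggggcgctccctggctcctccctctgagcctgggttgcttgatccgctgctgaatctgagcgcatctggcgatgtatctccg
Tpi1: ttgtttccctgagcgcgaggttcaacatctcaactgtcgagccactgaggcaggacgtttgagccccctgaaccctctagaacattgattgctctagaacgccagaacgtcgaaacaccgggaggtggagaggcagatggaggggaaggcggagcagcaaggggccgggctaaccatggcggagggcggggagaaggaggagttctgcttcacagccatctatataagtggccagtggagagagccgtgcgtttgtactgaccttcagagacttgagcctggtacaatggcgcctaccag

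The Bnip3 window held 5 matches, at −117, −108, −107, −99 and −35 from the start, and the Ero1l window 3, at −128, −88 and −63. Anxa2 had 2 matches, at −137 and 43, and Pgk1 had 2, at −150 and −131. Mgarp had 1 match, at −219, and Tpi1 had 0. Over all promoters of that length in the table, 43.8% of 32851 windows held at least 1 match. Counting a gene once if any of its windows held a match, the share was 68.0% of 628 matched genes called higher, 68.3% of 654 called lower and 69.5% of 8161 tested. The shares among the genes called were thus close to that among all genes tested. Of the 15 genes with the smallest p that were higher, 12 could be matched and 11 of those had one, and of the 15 lower 14 were matched and 9 had one. A match is only a run of letters, not a measured binding site.

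Enzymes that hydroxylate collagen or oxidise folding proteins in the endoplasmic reticulum were higher in 5 of 9 cases and lower in 0 (median 1.23). P4ha2, a catalytic subunit of collagen prolyl hydroxylase, was at 34.2 and 23.5 FPKM in tKO and 0.485 and 0.0305 FPKM in WT (4.57 ± 0.33, adjusted p = 1.92e-06). P4ha1, the other subunit of this kind, was at 73.7 and 69.8 FPKM in tKO and 15.7 and 13.5 FPKM in WT (2.22 ± 0.26, adjusted p = 8.48e-05). Ero1l, the oxidase that feeds disulfide formation, was at 106 and 98.8 FPKM in tKO and 12.2 and 10.1 FPKM in WT (3.10 ± 0.19, adjusted p = 5.18e-07). Plod2, a collagen lysyl hydroxylase, was at 69.9 and 55.2 FPKM in tKO and 17.7 and 18.6 FPKM in WT (1.72 ± 0.25, adjusted p = 0.000536).

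Another list held histone and DNA demethylases and related enzymes that use 2-oxoglutarate as the PHD proteins do. Of its 16 tested genes 4 were higher and 0 lower (median 0.23), and fewer were higher with any 1 library left out. Jmjd6 was at 81.9 and 62.6 FPKM in tKO and 27.6 and 26.5 FPKM in WT (1.37 ± 0.17, adjusted p = 0.000165). Kdm4b, a histone H3 lysine demethylase, was at 29.3 and 25.8 FPKM in tKO and 7.47 and 8.76 FPKM in WT (1.65 ± 0.28, adjusted p = 0.00165). The share was above the 7.82% of all genes called higher, but it rested on few genes.

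In the tricarboxylic acid cycle 1 of 20 genes was called higher and 0 lower, beside 7.82% and 8.16% of all genes. A fit of the 2 ng/ml libraries alone called 5 lower. The gene called higher supplies the cycle instead of turning it. Pcx, pyruvate carboxylase, which makes oxaloacetate, was at 15.1 and 17.5 FPKM in tKO and 1.92 and 1.80 FPKM in WT (2.59 ± 0.37, adjusted p = 0.00041). The median of the list was −0.09. Cs, citrate synthase, was at 101 and 97.4 FPKM in tKO and 106 and 118 FPKM in WT.

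Nuclear genes of oxidative phosphorylation were lower in 11 of 36 cases and higher in 0 (median −0.53), against 8.16% of all genes called lower. Ndufa4, a small subunit of the respiratory chain, was at 167 and 179 FPKM in tKO and 470 and 439 FPKM in WT (−1.39 ± 0.27, adjusted p = 0.00332). Ndufa2, of complex I, was at 123 and 109 FPKM in tKO and 249 and 243 FPKM in WT (−1.08 ± 0.21, adjusted p = 0.00361, and 0.0504 without tKO replicate 2). Atp5b, the catalytic subunit of the ATP synthase, was at 809 and 913 FPKM in tKO and 785 and 804 FPKM in WT and did not pass. The calls were few when 1 library was left out, with 1 to 4 genes lower. The genes of the list are short, with a median transcript length of 868 nt, and 10 were called lower with the length trend removed. At 0 ng/ml 0 genes of the list were called and the median was 0.07, where 9.64% of all genes were called (5.34% higher and 4.30% lower). At 0.2 ng/ml 1 gene of the list was higher and the median was 0.36, where 15.5% of all genes were called (9.11% higher and 6.38% lower). Over all 406 genes of up to 600 nt the median was −0.30 at 2 ng/ml, 0.01 at 0 ng/ml and 0.24 at 0.2 ng/ml, and the part of length in this order of the doses was not tested.

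**Figure D3:**
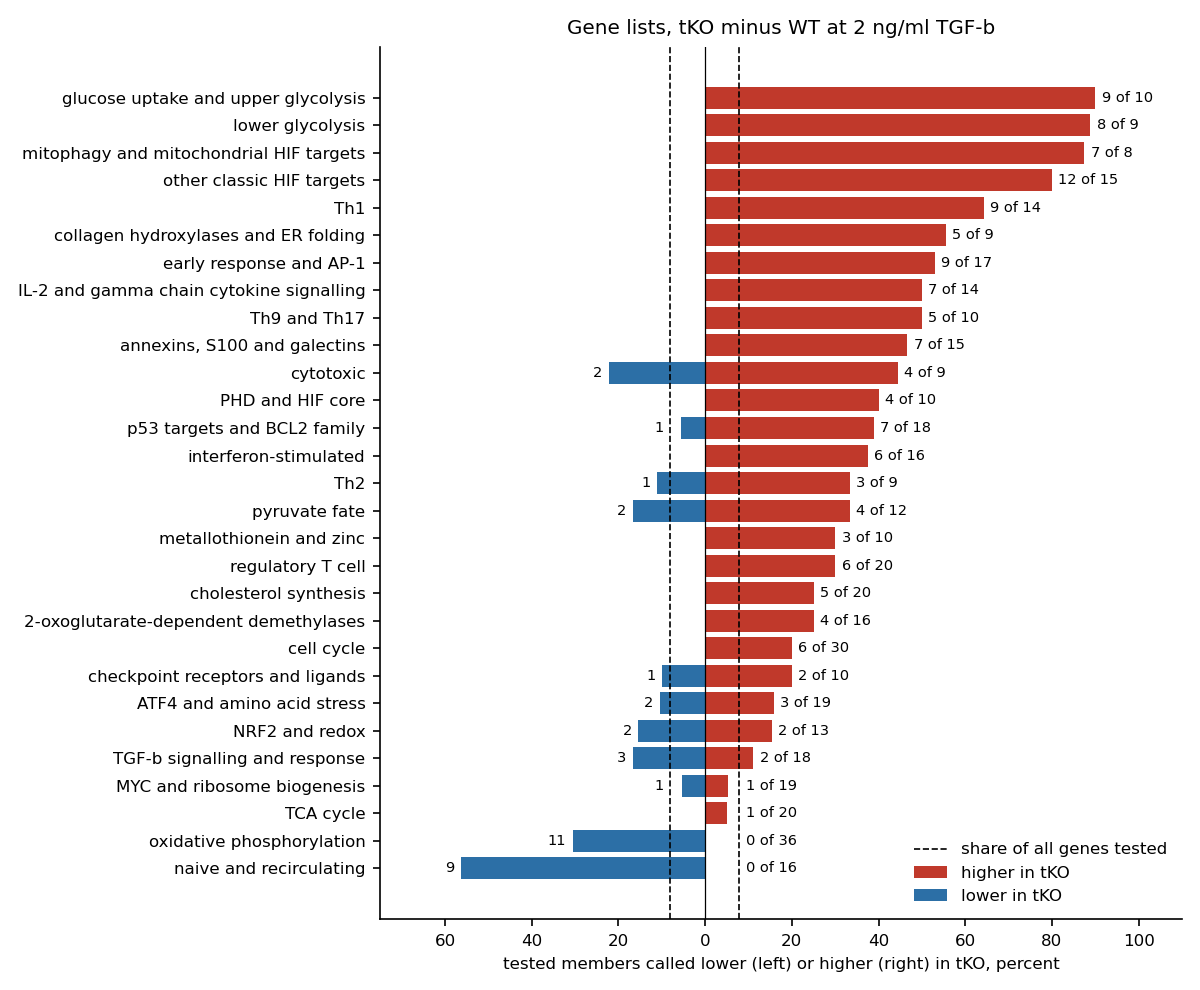
Percent of the tested genes of each list called higher or lower in tKO than in WT at 2 ng/ml TGF-b, with dashed lines at the shares of all genes tested, 7.82% higher and 8.16% lower. Glycolysis, mitophagy and other HIF targets stand far to the side of higher, while oxidative phosphorylation and the naive and recirculating list stand to the side of lower.

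Foxp3, which defines regulatory T cells (chromosome X, 7134466 to 7182546), was well expressed in both genotypes at this dose. It was at 86.7 and 142 FPKM in tKO and 120 and 168 FPKM in WT, so the genotypes overlapped, and the difference of −0.36 ± 0.28 did not pass (adjusted p = 0.434). Lrrc32, which presents latent TGF-b on regulatory T cells, was at 17.0 and 13.0 FPKM in tKO and 14.1 and 26.1 FPKM in WT, and Nt5e, the ectoenzyme CD73, at 278 and 272 FPKM in tKO and 270 and 357 FPKM in WT. Of 20 tested genes of the regulatory list 6 were higher and 0 lower (median 0.23), and 3 to 4 were higher when any 1 library was left out. Tnfrsf9, the costimulatory receptor 4-1BB, was at 452 and 390 FPKM in tKO and 107 and 67.5 FPKM in WT (2.29 ± 0.21, adjusted p = 1.07e-05). Tnfrsf18, the receptor GITR, was at 582 and 530 FPKM in tKO and 281 and 275 FPKM in WT (0.99 ± 0.17, adjusted p = 0.00135). Ebi3, a subunit of interleukin 35, was at 57.5 and 111 FPKM in tKO and 18.4 and 29.1 FPKM in WT (1.75 ± 0.32, adjusted p = 0.00256). Of these members, Tnfrsf9 and Tnfrsf18 are also genes of activated T cells in general.

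Of 18 tested genes of TGF-b signalling 2 were higher and 3 lower (median −0.12), beside 7.82% and 8.16% of all genes, and 1 to 2 were higher and 2 to 3 lower with any 1 library left out. Sox4, a transcription factor induced by TGF-b (chromosome 13, 29040788 to 29045777), was at 5.01 and 8.02 FPKM in tKO and 66.4 and 71.9 FPKM in WT, a difference of −3.25 ± 0.30 (adjusted p = 1.35e-05). Ldlrad4, which restrains TGF-b receptor signals, was at 47.2 and 42.7 FPKM in tKO and 117 and 122 FPKM in WT (−1.39 ± 0.24, adjusted p = 0.00191). Tgfb1 itself was at 124 and 139 FPKM in tKO and 82.3 and 66.0 FPKM in WT (0.82 ± 0.17, adjusted p = 0.00581), and its adjusted p was 0.0699 without WT replicate 2 and 0.0694 without tKO replicate 2. Itgae, the integrin CD103 known to be induced by TGF-b, was at 57.8 and 48.7 FPKM in tKO and 39.8 and 66.9 FPKM in WT, where the genotypes overlapped.

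Genes of the Th1 program, which serves defence against intracellular pathogens, were higher in 9 of 14 cases and lower in 0 (median 1.96), and 6 to 8 with any 1 library left out. Tbx21, encoding its master factor T-bet (chromosome 11, 96959320 to 96976645), was at 28.4 and 15.6 FPKM in tKO and was listed at 0 in both WT libraries (adjusted p = 2.98e-05). Runx3, a partner of T-bet, was at 26.7 and 17.6 FPKM in tKO and 3.04 and 4.05 FPKM in WT (2.33 ± 0.28, adjusted p = 0.000106). Ccl3, a chemokine, was at 165 and 62.6 FPKM in tKO and 10.6 and 9.70 FPKM in WT (3.21 ± 0.41, adjusted p = 0.000172). In each case replicate 1 was the higher of the tKO libraries. Ifng, the signature cytokine, differed widely between the tKO libraries, with 32.6 and 2.30 FPKM against 0.0695 and 0 FPKM in WT (adjusted p = 0.00976, and 0.0862 without tKO replicate 1 and 0.0671 without WT replicate 2). The NK cell markers summed to 6.74 and 1.02 FPKM in tKO and 2.34 and 0.285 FPKM in WT, with Ncr1 listed at 0 in all 4, and their part in these results was not tested.

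Genes of the other effector programs moved in part. Their counts stand beside 7.82% of all genes called higher and 8.16% lower. Il9, the cytokine of Th9 cells (chromosome 13, 56580637 to 56583607), was at 88.6 and 158 FPKM in tKO and 1.19 and 2.67 FPKM in WT (5.40 ± 0.56, adjusted p = 3.54e-05). Csf2, encoding GM-CSF, was at 21.3 and 14.9 FPKM in tKO and 1.63 and 1.24 FPKM in WT (2.96 ± 0.41, adjusted p = 0.000316). Irf4, a factor of several effector fates, was at 127 and 111 FPKM in tKO and 61.3 and 42.0 FPKM in WT (1.21 ± 0.20, adjusted p = 0.00118). With Rora and Ahr (adjusted p of Ahr 0.0340, and 0.0688 to 0.216 whichever library was left out) these made 5 of 10 tested Th9 and Th17 genes higher and 0 lower, and 4 to 5 with any 1 library left out. In the Th2 list 3 of 9 were higher and 1 lower, and 2 and 0 to 1 with any 1 library left out. Gata3, its master factor, was at 66.2 and 72.0 FPKM in tKO and 28.8 and 31.9 FPKM in WT (1.16 ± 0.18, adjusted p = 0.000865), and the receptor Ccr4 at 55.1 and 80.6 FPKM in tKO and 14.2 and 21.4 FPKM in WT (1.87 ± 0.26, adjusted p = 0.000398). The Th2 cytokines Il4 and Il13 lay at or below 1.03 FPKM in all 4 libraries. The third Th2 gene called higher, Il24, was at 1.93 and 1.18 FPKM in tKO, and its adjusted p of 0.0435 became 0.101 to 0.236 whichever library was left out. Maf, the Th2 gene called lower, was at 23.5 and 22.4 FPKM in tKO and 85.3 and 57.8 FPKM in WT (−1.57 ± 0.33, adjusted p = 0.00543, but 0.0596 without WT replicate 1 and 0.0526 without tKO replicate 2). Among cytotoxic genes 4 of 9 were higher and 2 lower, counts that became 1 to 4 and 1 to 2 with any 1 library left out.

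Genes of naive and recirculating T cells were lower in 9 of 16 cases and higher in 0 (median −0.95), and 5 to 8 were lower with any 1 library left out. Klf2, a factor of quiescence and trafficking (chromosome 8, 74842960 to 74845553), was at 58.5 and 74.5 FPKM in tKO and 238 and 254 FPKM in WT (−1.88 ± 0.24, adjusted p = 0.000164). Its target S1pr1, through which T cells leave lymph nodes, was at 20.8 and 18.2 FPKM in tKO and 60.4 and 66.8 FPKM in WT (−1.66 ± 0.20, adjusted p = 0.000102). Tcf7, the factor TCF-1 of naive and memory cells, was at 76.8 and 70.2 FPKM in tKO and 181 and 176 FPKM in WT (−1.27 ± 0.18, adjusted p = 0.000452). Of 11 tested CD4 T cell markers, 4 were lower (Cd3d, Cd3g, Cd3e and Cd28) and 1 was higher (Cd2), with the adjusted p of Cd2 at 0.0655 to 0.121 whichever library was left out and that of Cd3e at 0.0614 without WT replicate 1 and 0.0656 when tKO replicate 2 was dropped. Cd3d, a signalling chain, was at 222 and 229 FPKM in tKO and 518 and 427 FPKM in WT (−1.06 ± 0.17, adjusted p = 0.00084), and Cd28, the costimulatory receptor, at 76.9 and 77.9 FPKM in tKO and 130 and 138 FPKM in WT (−0.78 ± 0.16, adjusted p = 0.00519).

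Transcripts of IL-2 signalling and of the early response were higher in part. In the list of IL-2 and gamma chain signalling 7 of 14 genes were higher and 0 lower (median 0.90), and 3 to 5 were higher with any 1 library left out. Il21r, the receptor for interleukin 21, was at 232 and 195 FPKM in tKO and 43.5 and 48.2 FPKM in WT (2.19 ± 0.23, adjusted p = 3.49e-05), and Cish, a feedback inhibitor induced by STAT5, at 246 and 268 FPKM in tKO and 98.6 and 98.7 FPKM in WT (1.37 ± 0.20, adjusted p = 0.000439). The early response list had 9 of 17 higher and 0 lower (median 1.14), and 4 to 7 with any 1 library left out. Junb, an AP-1 factor, was at 613 and 546 FPKM in tKO and 144 and 96.9 FPKM in WT (2.28 ± 0.20, adjusted p = 9.87e-06). Ier3, a survival gene, was at 45.4 and 49.5 FPKM in tKO and 2.55 and 5.30 FPKM in WT (3.36 ± 0.30, adjusted p = 1.04e-05). Atf3, a stress-induced factor, was at 31.2 and 25.9 FPKM in tKO and 1.03 and 0 FPKM in WT.

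Of 18 tested p53 targets and BCL2 family genes, 7 were higher and 1 lower, beside 7.82% and 8.16% of all genes. Fewer were higher with any 1 library left out. Besides the genes given next, Phlda3 (2.18), Ccng1 (1.22) and Mdm2 (1.30) were called higher. Cdkn1a, the cell cycle inhibitor p21, was at 230 and 191 FPKM in tKO and 39.96 and 25.01 FPKM in WT (2.69 ± 0.23, adjusted p = 8.92e-06). Bcl2l1, which protects from apoptosis as BCL-XL, was at 126 and 115 FPKM in tKO and 36.2 and 32.1 FPKM in WT (1.79 ± 0.16, adjusted p = 9.39e-06). The gene called lower, Sesn1, a stress gene that restrains mTORC1, was at 24.5 and 27.1 FPKM in tKO and 103 and 129 FPKM in WT (−2.12 ± 0.23, adjusted p = 4.87e-05). Of 30 cell cycle genes 6 were higher, beside 7.82% of all genes, and 0 lower (median 0.33). The number higher was 1 to 3 with any 1 library left out and 10 with quantile scaling. Ccnd2, cyclin D2, led them at 241 and 289 FPKM in tKO and 113 and 88.6 FPKM in WT (1.39 ± 0.19, adjusted p = 0.000334), while Mki67, a marker of cycling cells, was at 47.3 and 50.2 FPKM in tKO and 37.2 and 46.3 FPKM in WT and did not pass.

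Smaller groups showed single strong members. Their counts stand beside 7.82% of all genes called higher and 8.16% lower. Metallothionein genes, which bind zinc, rose with Mt1 at 726 and 710 FPKM in tKO and 86.7 and 71.8 FPKM in WT (3.17 ± 0.27, adjusted p = 8.78e-06) and Mt2 at 64.5 and 59.6 FPKM in tKO and 5.85 and 2.29 FPKM in WT. The 2 genes are related in sequence, and how well reads were split between them was not tested. The metallothionein and zinc list had 3 of 10 genes higher and 0 lower, and 2 to 4 higher with any 1 library left out. Besides Anxa2, the annexin, S100 and galectin list had Anxa4 at 44.7 and 55.7 FPKM in tKO and 12.8 and 11.9 FPKM in WT (1.93 ± 0.19, adjusted p = 2.23e-05) and Lgals3 at 329 and 312 FPKM in tKO and 121 and 129 FPKM in WT (1.35 ± 0.17, adjusted p = 0.000194). It counted 7 of 15 higher and 0 lower, and 4 to 6 higher with any 1 library left out. Interferon-stimulated genes were higher in 6 of 16 cases and lower in 0, and 3 to 4 with any 1 library left out. Among them Ifitm2, which blocks viral entry, was at 179 and 200 FPKM in tKO and 63.2 and 64.9 FPKM in WT (1.55 ± 0.21, adjusted p = 0.000248), while Isg15 was at 1.84 and 2.22 FPKM in tKO and 4.21 and 2.40 FPKM in WT and did not pass. Cholesterol synthesis genes were higher in 5 of 20 cases, but in 0 to 2 with any 1 library left out.

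The other lists are given beside the shares of all genes, 7.82% higher and 8.16% lower. With the range when any 1 library was left out, the checkpoint list had 2 of 10 higher (1 to 3) and 1 lower (0 to 1), and the NRF2 and redox list 2 of 13 higher (1 to 2) and 2 lower (1). The list of ATF4 and amino acid stress had 3 of 19 higher (3) and 2 lower (1), and that of MYC and ribosome biogenesis 1 of 19 higher (0 to 1) and 1 lower (0 to 1). Among them Ftl1, the ferritin light chain that stores iron, was at 826 and 723 FPKM in tKO and 1862 and 1722 FPKM in WT (−1.21 ± 0.17, adjusted p = 0.00035). The paralog of Sesn1 in the stress list, Sesn2, was at 33.9 and 31.5 FPKM in tKO and 9.58 and 7.69 FPKM in WT (1.81 ± 0.31, adjusted p = 0.00157). The paralogs Sesn1 and Sesn2 thus moved in opposite directions, each past the test.

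The effect of the knockout at 2 ng/ml was set against that at 0 ng/ml, which uses other libraries, by testing the difference of the effects. It was called for 308 of 10354 genes (2.97%), 160 with the effect higher at 2 ng/ml (1.55%) and 148 lower (1.43%). The count was 78 without WT 0 ng/ml replicate 1, 88 without tKO 2 ng/ml replicate 2, 95 without tKO 2 ng/ml replicate 1, 95 without tKO 0 ng/ml replicate 2, 119 without WT 2 ng/ml replicate 2, 142 without WT 0 ng/ml replicate 2 and 158 without WT 2 ng/ml replicate 1. It was 409 without tKO 0 ng/ml replicate 1. The genes named next kept their call whichever library was left out, except Tpi1.

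Foxp3 was 1 of the genes whose effect changed most clearly. Without TGF-b it was at 1.99 and 3.77 FPKM in tKO and 51.4 and 50.5 FPKM in WT, an effect of −3.78 ± 0.28 (adjusted p = 2.42e-06). At 0.2 ng/ml it was at 40.2 and 30.9 FPKM in tKO and 108 and 144 FPKM in WT. Set against the −0.36 at 2 ng/ml, the effect differed by 3.42 ± 0.40 (adjusted p = 0.00123). The shortfall of tKO cells was therefore present without TGF-b, and at 2 ng/ml the genotypes overlapped. Lrrc32 followed the same order, at 2.80 and 1.30 FPKM in tKO and 26.2 and 22.4 FPKM in WT without TGF-b, and its effect differed by 2.75 ± 0.45 between the doses (adjusted p = 0.00655). Klf2, lower in tKO at every dose, was at 5.61 and 4.63 FPKM in tKO and 130 and 120 FPKM in WT without TGF-b, so that its effect was smaller at 2 ng/ml by 2.49 ± 0.33 (adjusted p = 0.00201).

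For Il4, Il24 and Srgn the effect was lower at 2 ng/ml than without TGF-b. Il4, the Th2 cytokine, was at 37.9 and 56.4 FPKM in tKO and 0.337 and 0 FPKM in WT without TGF-b, and at 0.254 and 0 FPKM in tKO and 0 and 0.915 FPKM in WT at 2 ng/ml; the effect differed by −5.66 ± 0.54 (adjusted p = 0.000489). Il24, a cytokine of the IL-10 family, was at 104 and 130 FPKM in tKO and 0.152 and 0 FPKM in WT without TGF-b, and its effect differed by −5.46 ± 0.57 (adjusted p = 0.000596). Srgn, the granule proteoglycan serglycin, was at 740 and 732 FPKM in tKO and 275 and 281 FPKM in WT without TGF-b, against 191 and 129 FPKM in tKO and 342 and 265 FPKM in WT at 2 ng/ml, so its order between the genotypes turned (difference −2.34 ± 0.34, adjusted p = 0.00382). At 2 ng/ml alone its fall of 0.94 had an adjusted p of 0.0194, 0.145 without WT replicate 1 and 0.212 without tKO replicate 2.

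Several of the genes that rose most had a larger effect at 2 ng/ml than without TGF-b. Genes named for their rise at 2 ng/ml were picked on libraries that also enter this difference, which favours a larger effect at that dose. Scin had 27.2 and 14.8 FPKM in tKO and 9.28 and 6.90 FPKM in WT without TGF-b, an effect of 1.23 ± 0.34, and the difference between the doses was 4.02 ± 0.48 (adjusted p = 0.00137). The effect was larger by 1.59 ± 0.23 for Bnip3 (adjusted p = 0.00382), by 2.11 ± 0.32 for Ndrg1 (adjusted p = 0.00483) and by 1.70 ± 0.24 for Anxa2 (adjusted p = 0.00261). Tpi1 was at 1519 and 1777 FPKM in tKO and 629 and 626 FPKM in WT without TGF-b, against 1184 and 1233 FPKM in tKO and 192 and 172 FPKM in WT at 2 ng/ml; the effect differed by 1.34 ± 0.23 (adjusted p = 0.00801, and 0.0507 without WT 0 ng/ml replicate 1, 0.0527 without WT 2 ng/ml replicate 2 and 0.0561 without tKO 2 ng/ml replicate 2). Pcx stood at 11.8 and 6.66 FPKM in tKO and 14.5 and 15.3 FPKM in WT without TGF-b, so that its rise in tKO was seen at 2 ng/ml and the effect differed by 3.27 ± 0.52 (adjusted p = 0.00576). Eno3 was lower in tKO without TGF-b, at 29.1 and 40.7 FPKM against 166 and 200 FPKM in WT, and the effect differed by 2.40 ± 0.35 (adjusted p = 0.00319). Mt1 was the reverse, at 1199 and 1754 FPKM in tKO and 17.2 and 19.3 FPKM in WT without TGF-b, an effect larger than that at 2 ng/ml (difference −3.07 ± 0.38, adjusted p = 0.00146).

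**Figure D4:**
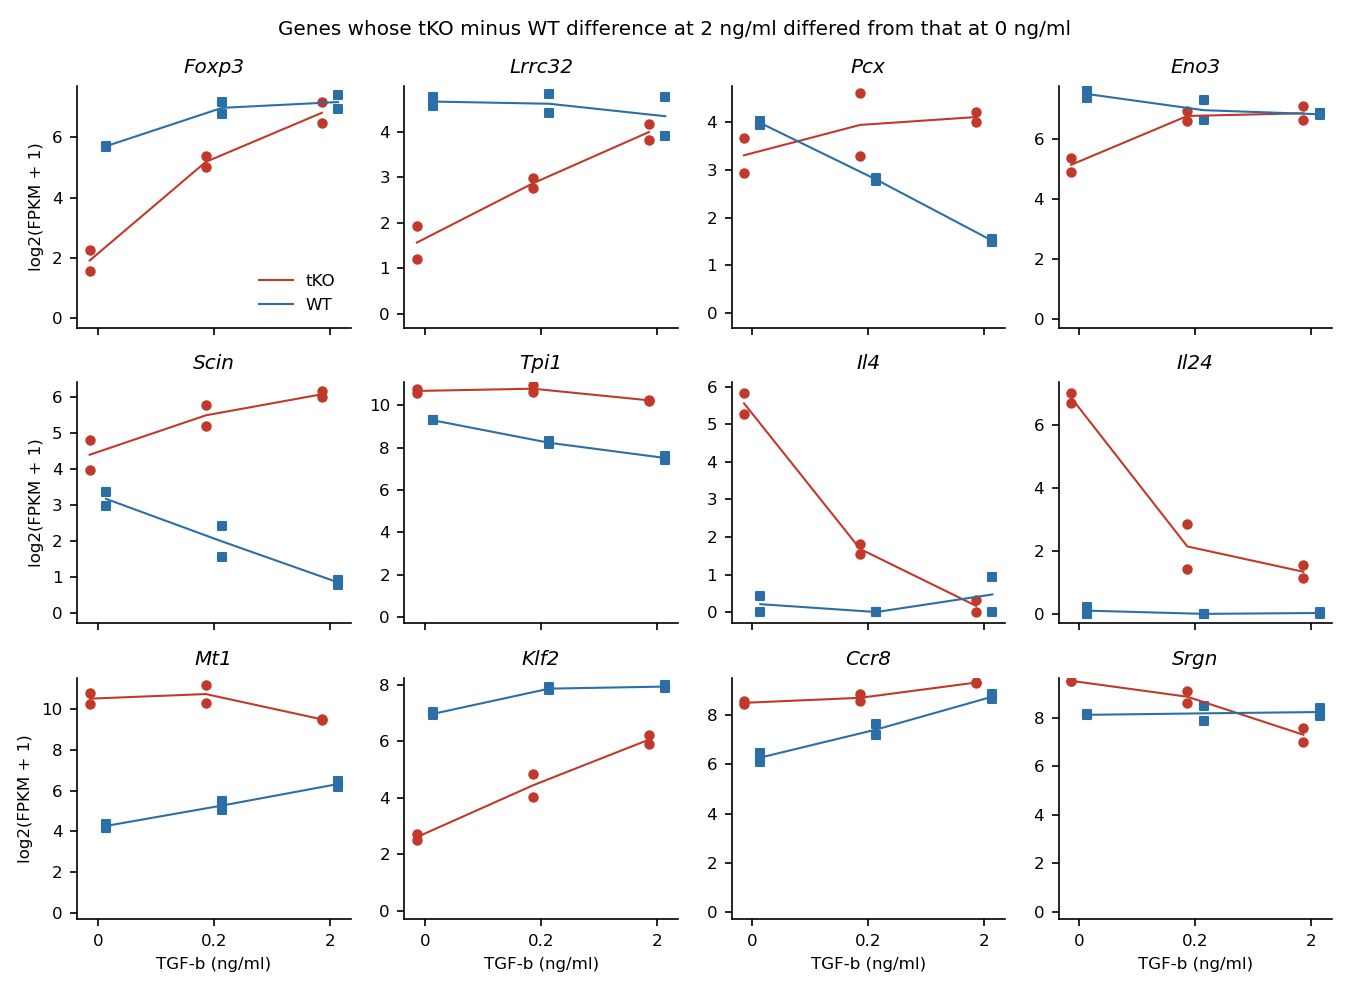
log2(FPKM + 1) of 12 genes at 0, 0.2 and 2 ng/ml TGF-b in tKO and WT libraries, with points for libraries and lines for the means of 2. Foxp3 and Lrrc32 are far apart between the genotypes at 0 ng/ml and overlap at 2 ng/ml, Il4 and Il24 are highest in tKO at 0 ng/ml, and Tpi1, Scin and Pcx lie further apart between the genotypes at 2 than at 0 ng/ml.

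Against 0.2 ng/ml the difference of the effects was called for 214 genes (2.07%), 36 higher at 2 ng/ml (0.348%) and 178 lower (1.72%). That count ran between 1 and 7 when any library other than tKO 0.2 ng/ml replicate 1 was left out and was 1708 without that library.

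DMOG was given to wild-type cells at the same dose, in libraries that share no sample with the knockout comparison. It changed 6014 of 9884 genes (60.8%), 2735 higher (27.7%) and 3279 lower (33.2%), with 3 libraries each. Of the 9192 genes tested in both experiments, 709 were higher in tKO and 2533 higher with DMOG, and 572 were both. They made up 80.7% of the first list, against 27.6% of all 9192 genes called higher with DMOG. Of the second list they made up 22.6%, against 709 of all 9192 genes called higher in tKO. Of 767 genes lower in tKO and 3012 lower with DMOG, 506 were both. That was 66.0% of the first list, against 32.8% of all genes called lower with DMOG. It was 16.8% of the second, against 767 of all 9192 genes called lower in tKO. Opposite calls were made for 28 of the 709 (3.95%) and 38 of the 767 (4.95%). Over all genes, 32.8% were called lower and 27.6% higher with DMOG. Across the 9192 genes, which are not independent, the differences correlated with r = 0.638.

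**Figure D5:**
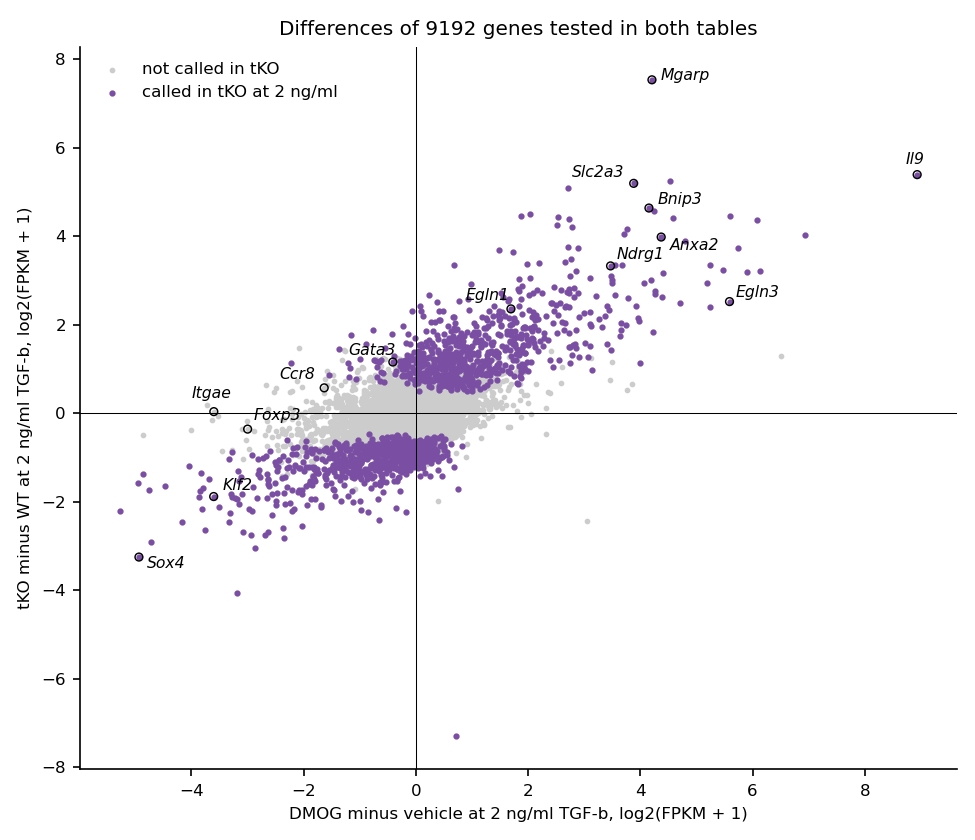
Difference of log2(FPKM + 1), DMOG minus vehicle (x) against tKO minus WT (y), both at 2 ng/ml TGF-b, 1 point for each of 9192 genes tested in both experiments. Most genes far from 0 on both axes lie in the quadrants of equal sign, while Foxp3 lies low on the DMOG axis and near 0 on the tKO axis.

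With DMOG, 15 of 17 other HIF targets were higher and 2 lower, as were 6 and 1 of 7 tested mitophagy genes and 4 and 2 of 9 tested genes of the PHD and HIF core. These counts stand beside 27.7% of all genes called higher and 33.2% called lower with DMOG. Bnip3 and Egln3 were higher in both experiments. With DMOG, Bnip3 was at 158, 176 and 171 FPKM against 8.77, 7.94 and 8.81 FPKM with vehicle (4.15 ± 0.11, adjusted p = 3.6e-15), and Egln3 at 338, 306 and 319 FPKM against 6.97, 4.79 and 5.46 FPKM (5.59 ± 0.12, adjusted p = 6.7e-16). Il9 was at 826, 598 and 583 FPKM with DMOG and 0.302, 0.371 and 0.387 FPKM with vehicle, and Tbx21 at 53.5, 53.5 and 57.0 FPKM with DMOG and 0.201, 0.145 and 0.0895 FPKM with vehicle. Sox4 was lower in both experiments, at 0.566, 0.537 and 0.707 FPKM with DMOG and 42.9, 51.7 and 49.98 FPKM with vehicle (−4.94 ± 0.11, adjusted p = 7.7e-16).

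Of 22 tested genes of the regulatory list, 9 were higher and 10 lower with DMOG, beside 27.7% of all genes higher and 33.2% lower. Foxp3 was at 7.21, 8.84 and 10.9 FPKM with DMOG and 91.0, 61.6 and 84.0 FPKM with vehicle (−3.00 ± 0.15, adjusted p = 2.27e-11), beside its −0.36 ± 0.28 in the knockout. Lrrc32 was at 4.55, 2.85 and 3.38 FPKM with DMOG and 20.6, 17.6 and 18.2 FPKM with vehicle (−2.12 ± 0.13, adjusted p = 3.19e-10). Itgae was at 8.44, 5.43 and 5.34 FPKM with DMOG and 71.6, 102 and 90.6 FPKM with vehicle (−3.60 ± 0.16, adjusted p = 2.75e-12), beside 0.04 ± 0.36 in the knockout. Nt5e was at 54.4, 38.8 and 47.1 FPKM with DMOG and 307, 443 and 402 FPKM with vehicle (−3.01 ± 0.14, adjusted p = 1.14e-11), beside −0.17 ± 0.34 in the knockout. Gata3 was lower with DMOG (−0.41 ± 0.13, adjusted p = 0.0129, and 0.0802 without vehicle replicate 1 and 0.0662 without DMOG replicate 2) and higher in tKO. Whether the effects of DMOG and of the knockout differ was not tested, since the experiments were run on different instruments and normalized separately. DMOG inhibits other 2-oxoglutarate-dependent dioxygenases as well as the PHD proteins.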

How the data were processed

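RNA-seq of mouse CD4+ T cells (RNeasy RNA, SMARTer low-input cDNA, a kit that does not mark strand) gave 18 libraries in 2 tables. The authors deposited FPKM per gene. Per the submitters' processing notes, the tools were TopHat, Cufflinks, Cuffdiff and Trimmomatic and the build mm9, without versions or settings. FPKM keeps no read number, so the depth and the counting error of each library are unknown. Coordinates are those of the deposited tables, counted from 1.

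In the first table exact duplicate entries (18 of 34309) and entries without a symbol (8482) were dropped, and distinct entries of a symbol were summed, leaving 22783 symbols. From these values log2(FPKM + 1) was computed for the 10354 genes whose mean over 12 libraries reached 1 FPKM. limma 3.58.1 (R 4.3.3) fitted 1 coefficient per group to all 12 libraries, with a trended prior and Benjamini-Hochberg adjustment at 0.05. The second table, normalized separately, was fitted alone (9884 genes). The procedure was tested on simulated data. Other tables were made with Python 3.11.15 and pandas 2.3.3.

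Members and gene lists were chosen with earlier results of these data known. Genes named are the 3 PHD genes, Hif1a, Epas1, Vhl and Foxp3; the 15 with the smallest p and the 8 with the largest change in each direction; up to 6 members of each list by p, and members whose role the text needs; and the 8 (0 ng/ml) or 5 (0.2 ng/ml) with the smallest p in each direction for the difference between doses. Some genes that this rule selects are not reported here. Alternatives were another pseudocount and filter, quantile and median-ratio scaling, a replicate block, the labelled series as a random factor, fits without single libraries or the tKO1 series, a fit of the 2 ng/ml libraries alone and, chosen after seeing the data, removal of the transcript length trend.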

Additional observations from a re-analysis of the deposited data

Results flagged for a closer look

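The tests of the difference between doses picked out 308 genes for 2 against 0 ng/ml and 214 for 2 against 0.2 ng/ml. Genes of smallest p in either test are given here as differences of the tKO minus WT effect on the log2 scale. Genes picked by p against 0.2 ng/ml are also listed against 0 ng/ml where called there. These are Clec2i, Tmem64, Tmem123, Isg15, Smim4, 1500012F01Rik and Atp5e. Against 0 ng/ml, the effect at 2 ng/ml was higher for Scin (4.02), Map6 (3.52), Ccdc164 (3.50), Foxp3 (3.42), Pla2g4f (3.39), Mgarp (3.25), Bcl3 (3.04), Clec2i (2.43), Igfbp7 (2.01), Tmem123 (1.94) and Tmem64 (1.71). It was lower for Il4 (−5.66), Il24 (−5.46), Pde1a (−4.84), Mt1 (−3.07), Akr1c18 (−2.96), Casp6 (−2.63), Isg15 (−2.56), Npc2 (−1.80), 1500012F01Rik (−1.69), Smim4 (−1.65) and Atp5e (−1.46). The calls of 6 of these genes were lost when single libraries were left out, with a highest limma adjusted p of 0.142 for Atp5e, 0.119 for 1500012F01Rik, 0.111 for Clec2i, 0.111 for Tmem64, 0.0835 for Isg15 and 0.0688 for Smim4.

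Against 0.2 ng/ml, the effect at 2 ng/ml was higher for Clec2i (2.64), Adck3 (2.14), Tmem64 (2.01), Arfgap3 (1.76) and Tmem123 (1.39), and lower for Isg15 (−3.76), Smim4 (−2.26), 1500012F01Rik (−2.14) and Atp5e (−1.99). Between 1 and 7 genes of this comparison were called when any library other than tKO 0.2 ng/ml replicate 1 was left out.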

How the results depend on the processing

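The 1655 genes called at 2 ng/ml became 725 to 1077 when 1 library was left out and stayed within 1.5 times under all other alternatives run. The 308 genes of the difference from 0 ng/ml became 157 with no filter on low values, 528 with the labelled series as a random factor, 773 without the tKO1 series and 78 to 409 with 1 library left out. The 214 genes of the difference from 0.2 ng/ml became 11, 528 and 1308 under the same settings and 1 to 1708 with 1 library left out, and quantile scaling moved the share of higher calls to 42.4%, against 16.8%. The causes were not tested. The labels do not say that replicate numbers pair the samples, and numbered libraries of both genotypes at 2 ng/ml deviated together with r = 0.0429, at 0 ng/ml with 0.255 and at 0.2 ng/ml with 0.0610. Between 2 and 0 ng/ml r was 0.127 for tKO and 0.0573 for WT. With a replicate block, 1946 genes were called at 2 ng/ml, 512 for the difference from 0 ng/ml and 536 for that from 0.2 ng/ml. The count for DMOG stayed within 1.5 times throughout.

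The sign of some genes not called at 2 ng/ml turned when 1 library was left out. The differences ran between −0.77 and 0.16 for Il4, −0.20 and 0.27 for Eno3, −0.77 and 0.077 for Lrrc32, −0.37 and 0.027 for Nt5e and −0.33 and 0.41 for Itgae. Itgae also turned without the tKO1 series (−0.083) and with the length trend removed (−0.11). The 7841 values of 270 named genes under alternatives pool several comparisons. They cover tKO minus WT at 2 ng/ml for all of these genes. The difference from 0 ng/ml and DMOG minus vehicle are covered for genes called in that same comparison. Of these values, 7142 kept direction and side of the threshold, 633 no longer passed, 57 newly passed and 9 changed sign. With 2 libraries per group and unknown depth, small differences of low genes were not detectable.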
